A study of Homo sapiens with 6 samples.

Results

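The CELF genes (CELF1 to CELF6) and the Muscleblind genes (MBNL1 to MBNL3) were followed in A549 cells, a human lung adenocarcinoma line, in which 1 of them, CELF6, had been over-expressed. The rule picks the members by gene symbol, and uses no measured value. Of the 9 named genes, 8 had a row among the 29889 genes of the count table. CELF3 had no row under its symbol, its older symbols or its gene identifier and was not analysed here. In the CELF6-OE group the cells had been transfected with a plasmid carrying CELF6, and in the Control group with the empty plasmid, by lipofection in both groups. Total RNA was taken 48 h after transfection from 3 biological replicates per group, 6 libraries in all, and both groups were the same line with no other change to the genome named in the labels. The share of cells that took up the plasmid is not given in the sources used here.

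CELF and Muscleblind proteins are 2 families of RNA-binding proteins that act on the same kind of transcripts. CELF proteins bind GU-rich stretches through RNA recognition motifs, and act on alternative splicing in the nucleus and on mRNA decay and translation in the cytoplasm. Muscleblind proteins bind through CCCH zinc fingers, and the families often push the same exon in opposite directions, as in heart and skeletal muscle after birth. In myotonic dystrophy, Muscleblind proteins are trapped on expanded CUG repeats while CELF1 rises. CELF1, CELF2, MBNL1 and MBNL2 are the widely expressed members, CELF3 to CELF6 are best known from brain, and MBNL3 from placenta and regenerating muscle.

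By coding sequence, CELF1 with CELF2, CELF3 to CELF6, and MBNL1 to MBNL3 formed separate groups. In the reference transcripts of GENCODE v44 (GRCh38), CELF1 and CELF2 were identical at 74.6% of aligned coding bases, and pairs among CELF3, CELF4, CELF5 and CELF6 at 72.8% to 77.5%. CELF6 shared 64.3% of aligned bases with CELF1 and 65.7% with CELF2. Pairs within the Muscleblind family were identical at 70.3% to 73.4%, and pairs across the families at 57.0% to 63.9%. A stretch of 30 coding bases near the end of each CELF coding sequence, where the family was most alike, is shown to make visible how close a paralog comes to CELF6. Capitals mark bases that differ from CELF6.

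CELF6: ggcatgaagaggctcaaggtccagctaaag
CELF4: ggcatgaagaggctcaaggtGcagctGaag
CELF5: ggcatgaagaggctcaaAgtccagctGaag
CELF3: ggcatgaagCgCctcaaAgtccagctaaag
CELF1: ggcatgaagCggctTaaAgtGcagctCaaA
CELF2: ggcatgaaACgCTtGaaggtGcagctGaag

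CELF4 and CELF5 differed from CELF6 at 2 of these bases, CELF3 at 3, CELF1 at 6 and CELF2 at 7. The stretch began at base 1387 of the CELF6 coding sequence, counted from the A of the start codon.

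**Figure D1:**
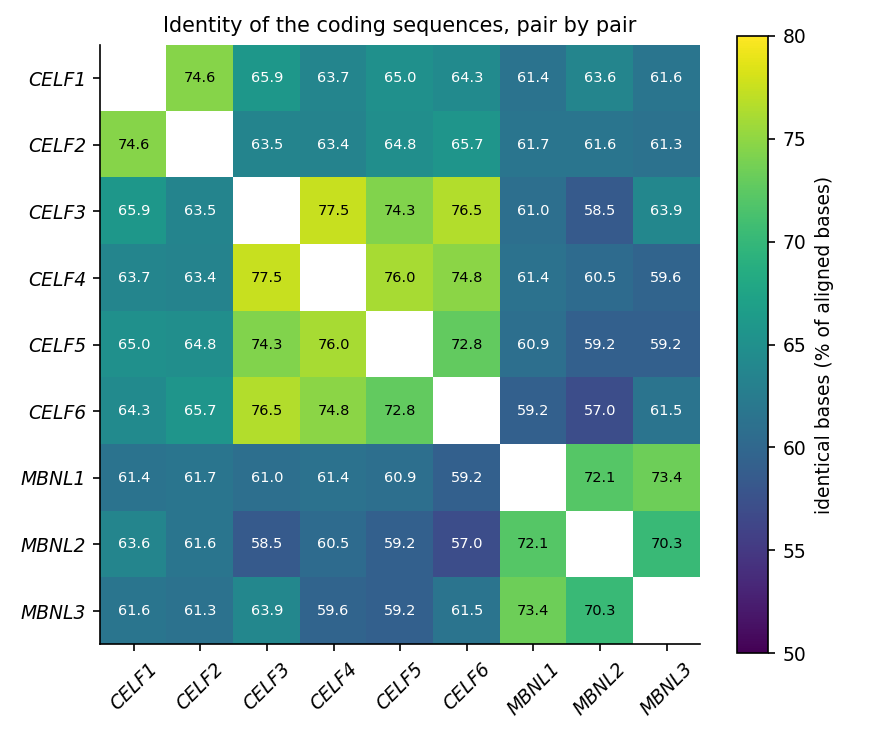
Identity of the coding sequences for each pair of the 9 genes, as a percentage of aligned bases, with gene names on both axes and the value printed in each cell. CELF1 with CELF2 (74.6%), CELF3 to CELF6 among themselves (72.8% to 77.5%) and the Muscleblind genes (70.3% to 73.4%) stand above the pairs across families.

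Over a full read length, the coding sequences of the members were well apart. No window of 150 bases, the read length given in the labels, in the coding sequence of any member came within 4 mismatches of any annotated transcript of another member. Windows outside the coding sequences were not compared. The closest window of CELF6 had 19 mismatches to CELF5, 21 to CELF3, 22 to CELF4, 35 to CELF1 and 36 to CELF2. The primers that the study used for CELF6 lie in the coding sequence, and the target of each is shown because a plasmid carrying the coding sequence contains it too.

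CELF6-F: GCTCCGACACGCTCTACAAT
CELF6-R: AGAGACAACGGCTCCAAAGG

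The forward primer matched exon 8 of CELF6 at chr15:72289160-72289179 and the reverse primer exon 11 at chr15:72288354-72288373 (GRCh38, CELF6 on the minus strand), for an amplicon of 284 bases in the mRNA. The nearest stretch in any transcript of another member differed from a primer at 5 or more bases.

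CELF6 checked the labels, and every library carried the level its label implied. CELF6 (ENSG00000140488, chr15:72284727-72320157) was counted 18646, 20789 and 11571 times in CELF6-OE replicates 1, 2 and 3 and had 0 counts in each Control library. As FPKM (fragments relative to the length of the transcript and to the size of the library), these were 270.09, 294.94 and 172.27, a mean of 246 ± 64.9 (SD, n = 3). CELF6-OE replicate 3 held 61.0% of the mean of the other 2 replicates. With a limit of 3 counts for each Control library, which is an FPKM of at most 0.0416, the rise of CELF6 was at least 6062-fold if the 0 reflects counting error alone (edgeR's quasi-likelihood test, Benjamini-Hochberg adjusted p = 2.9e-07). In bulk RNA, a larger share of transfected cells and more CELF6 RNA per transfected cell cannot be told apart. CELF6 ranked 230th, 208th and 354th by FPKM in the 3 CELF6-OE libraries and took 0.0537%, 0.0587% and 0.0343% of their counts.

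The FPKM of CELF6 was computed over a longer transcript than its coding sequence. Counts and FPKM together imply a length of 1902 bases, against 1446 coding bases (481 codons). The reference transcript of GENCODE v44 has 3373 bases and all annotated exons of CELF6 together 3616, so the implied length is neither of these. If only the coding sequence was transcribed from the plasmid, the same counts give an FPKM of 355, 388 and 227, a mean of 323 ± 85.3 (SD, n = 3). Which length applies was not tested, since the counts are per gene.

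The CELF6 locus is shared with an annotated gene on the same strand, ENSG00000260729 (named RP11-106M3.2 in the table), which spans CELF6 and reaches into HEXA and, in GENCODE v44, covers 88.8% of the exonic bases of CELF6. In Control, where CELF6 itself was at 0, it had 1440, 1508 and 1596 counts, and in CELF6-OE 1097, 1163 and 1156. It was lower in CELF6-OE by the main test, with a log2 fold change of -0.34 ± 0.073 (SE, adjusted p = 0.00892). HEXA, a lysosomal hexosaminidase subunit and the next gene upstream, fell by 0.31 on the log2 scale (SE 0.063, adjusted p = 0.00683), with 2818, 3027 and 3036 counts in the Control libraries and 2291, 2272 and 2240 in the CELF6-OE libraries. Between CELF6 and its overlapping gene, the rule by which reads on shared exons were given to 1 gene is not given in the sources used here, so the 0 of CELF6 in Control, and with it the bound on the fold, rests on that rule. Of the 5 tested genes within 100 kb of CELF6, these 2 passed, a share to be read against 18.0% of all genes tested. HEXA and ENSG00000260729 share 617 exonic bases in GENCODE v44, so they may not be separate observations. The call of HEXA was lost without Control replicate 2 and that of ENSG00000260729 without CELF6-OE replicate 1. PKM, the pyruvate kinase of glycolysis, had a log2 fold change of -0.14 (adjusted p = 0.224) and PARP6 one of -0.11 (adjusted p = 0.340). TMEM202-AS1 had 0.087 (adjusted p = 0.837).

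Depth was 33748328 to 35413404 counts per library for CELF6-OE and 36422617 to 37920700 for Control, so that every CELF6-OE library was the shallower, and mitochondrial genes took 8.69% to 10.1% of the counts. No pair of replicates was a duplicate (chi-square over genes divided by its degrees of freedom, 7.69 to 29.3, highest for Control replicates 1 and 3). All 11 markers of epithelium and A549 fixed for the check had a mean FPKM over all libraries above 1, with a summed FPKM of 10590 to 12185 in CELF6-OE against 12882 to 13052 in Control. Of 8 neuron markers 4 were above 1, with sums of 9.77 to 11.45 and 14.06 to 15.83. Of this list SNAP25 was the highest. A further row with the symbol TUBB3 under another identifier was not used by the list. It held 13208 to 15819 counts in CELF6-OE and 11550 to 14680 in Control. Of 8 muscle markers, 4 had FPKM values, none with a mean over all 6 libraries above 0.1 (sums of 0.08 to 0.17 and 0.18 to 0.22), and of 7 leukocyte markers CD14 alone was above 1 while PTPRC, the pan-leukocyte CD45, had 2 counts in all libraries together. The sums of the epithelial, neuron and muscle lists were lower in all 3 CELF6-OE libraries, the neuron sum without that further TUBB3 row. Single genes of these lists had a higher mean FPKM in CELF6-OE, among them AKR1B10 and the listed TUBB3 row. The part of these differences in the results for the members was not tested.

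The remaining members spanned the range from silent to moderate, and the order of their FPKM levels was alike in both groups. In Control, MBNL1 had the highest mean at 7.99 ± 1.58 (SD, n = 3), followed by CELF1 at 6.72 ± 0.49, MBNL2 at 2.13 ± 0.34 and CELF5 at 0.22 ± 0.038. The ranges of MBNL1 and CELF1 overlapped in Control, although MBNL1 was above CELF1 in 3 of 3 libraries. The steps from CELF1 to MBNL2 (3.16-fold) and from MBNL2 to CELF5 (9.52-fold) were larger than the spread between replicates. In CELF6-OE the order was CELF6, MBNL1 (9.49 ± 0.35), CELF1 (7.58 ± 0.34), MBNL2 (1.86 ± 0.17) and CELF5 (0.13 ± 0.04), and no ranges of neighbours overlapped.

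CELF2, CELF4 and MBNL3 were close to 0 in both groups. CELF2 counts were 0, 1 and 1 in CELF6-OE against 2, 1 and 0 in Control. CELF4 counts were 7, 2 and 4 against 1, 4 and 0. MBNL3, on the X chromosome, was at 0, 0 and 1 against 2, 1 and 4. These counts lie at or near the limit of 3 counts that a 0 allows, so differences between groups were not detectable at this depth, and the 3 genes did not pass the filter on low counts. Tested without that filter they had unadjusted p of 0.769, 0.130 and 0.102 in the order named (edgeR). In that fit the prior degrees of freedom were infinite, so a gene's own replicate spread had no weight.

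**Figure D2:**
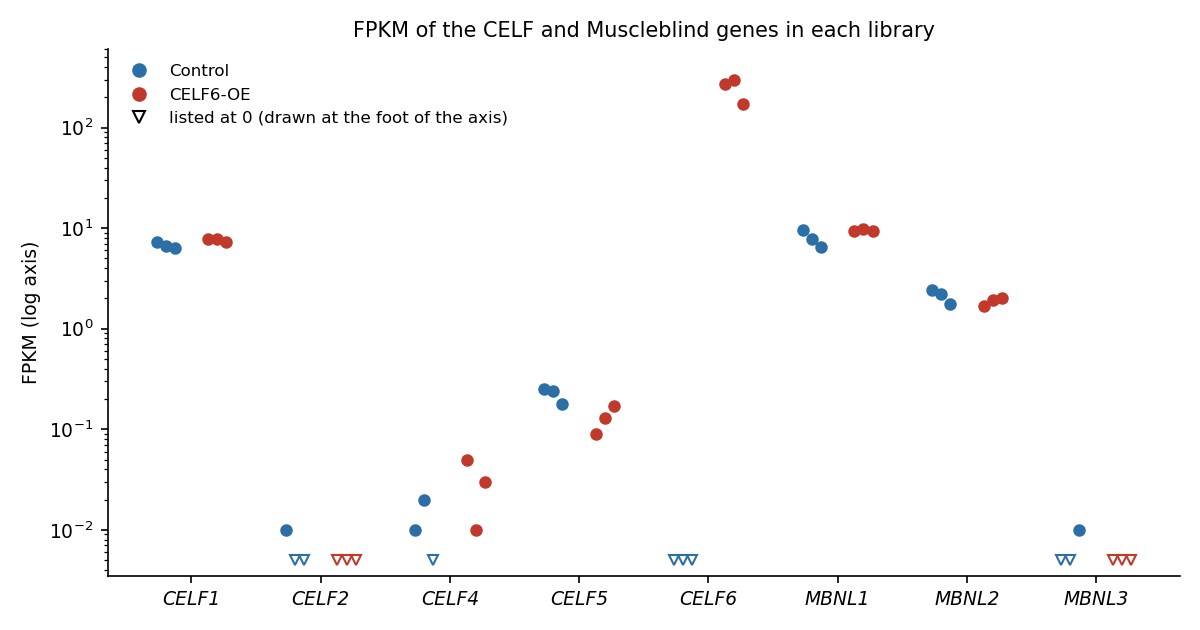
FPKM of each member in each library on a log axis, with Control in blue and CELF6-OE in red, 3 libraries each, and open triangles for values listed at 0. CELF6 is at 172.27 to 294.94 in CELF6-OE and at 0 in Control, whereas CELF1, MBNL1 and MBNL2 stay within the same decade in both groups.

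Of the 4 members with enough counts besides CELF6, 0 passed an adjusted p under 0.05, against 18.0% of the 15847 genes tested. At an unadjusted p under 0.05, which 32.7% of all tested genes reached, 2 of the 4 were counted, CELF1 and CELF5. DESeq2 and limma-voom called 0 of the 4 as well. By the thresholds of the study's methods, a p under 0.01 with a fold change of at least 1.5, 0 of the 4 were counted, against 7.27% of all genes tested. A p that misses the threshold does not show equal levels, and the intervals below say how far each gene could have moved.

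CELF1 (chr11:47465933-47565569, minus strand), which binds GU-rich elements in decaying mRNAs and is the best studied of its family, was slightly higher in CELF6-OE. Its counts were 2527, 2585 and 2274 in CELF6-OE against 2461, 2333 and 2222 in Control, which are 72.6, 71.4 and 66.6 against 66.4, 62.8 and 60.9 TMM-scaled CPM (counts relative to a TMM-scaled library size). The groups did not overlap on the scaled counts, as in 37.9% of all genes tested (17.9% higher and 20.0% lower in CELF6-OE), but the lowest CELF6-OE value nearly met the highest Control value and the FPKM ranges did overlap. The fold change was 1.11 (95% interval 1.00 to 1.22), a log2 difference of 0.15 ± 0.066 (SE, adjusted p = 0.147), and under 16 alternative settings it ranged from 0.12 to 0.18 without passing in any (adjusted p from 0.0643 to 0.371).

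CELF5 (chr19:3224661-3297076, plus strand), known mainly from brain, was the lowest of the tested members and, besides CELF6, the one with the largest difference. Its counts were 16, 23 and 28 in CELF6-OE against 45, 45 and 33 in Control, that is 0.46, 0.64 and 0.82 against 1.21, 1.21 and 0.90 TMM-scaled CPM. Every CELF6-OE library lay below every Control library, as in 20.0% of all genes tested. The fold change was 0.58 (95% interval 0.38 to 0.86), a log2 difference of -0.80 ± 0.27 (SE, adjusted p = 0.0591). This call moved with the filter and with single libraries. Without a filter on low counts the adjusted p was 0.0276, where 11.8% of 29889 genes passed and 5.14% met the study's thresholds, as CELF5 then did. That unfiltered fit had infinite prior degrees of freedom, so the gene's own replicate spread had no weight in it. With at least 10 counts required in every library the adjusted p of CELF5 was 0.0465, where 913 of 14698 genes rose and 1754 fell. Without CELF6-OE replicate 3 it was 0.0455 at a log2 difference of -1.02, where 624 of 16224 genes rose and 1517 fell. Without Control replicate 3 it was 0.0383 at -0.92, where 1288 of 16096 genes rose and 2036 fell. Without CELF6-OE replicate 1 it was 0.198 at -0.61.

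MBNL1 (chr3:152243828-152465780, plus strand), the main Muscleblind protein of most tissues, was counted 2256, 2455 and 2198 times in CELF6-OE against 2457, 2042 and 1734 times in Control. On the scaled counts these were 64.8, 67.8 and 64.3 against 66.3, 54.9 and 47.6 CPM, and the groups overlapped because Control replicate 1 lay among the CELF6-OE libraries. The coefficient of variation of its FPKM was 19.7% in Control and 3.68% in CELF6-OE. The fold change was 1.17 (95% interval 0.997 to 1.36), a log2 difference of 0.22 ± 0.10 (SE, adjusted p = 0.159). Without Control replicate 1 the log2 difference was 0.35 (adjusted p = 0.00291), and over all alternatives it ranged from 0.12 to 0.35. In the fit without Control replicate 1, 1906 of 16077 genes rose and 2370 fell, against 1025 and 1820 of 15847 in the main test.

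MBNL2 (chr13:97221434-97394120, plus strand), the Muscleblind protein best known from brain, was counted 294, 344 and 343 times in CELF6-OE against 444, 425 and 335 times in Control. These were 8.45, 9.50 and 10.0 against 12.0, 11.4 and 9.19 TMM-scaled CPM, and Control replicate 3 lay among the CELF6-OE libraries. The fold change was 0.86 (95% interval 0.71 to 1.03), a log2 difference of -0.22 ± 0.12 (SE, adjusted p = 0.234). Without Control replicate 3 it was -0.33 (adjusted p = 0.0438), and over all alternatives it ranged from -0.33 to -0.15. In the fit without Control replicate 3, 1288 of 16096 genes rose and 2036 fell, against 1025 and 1820 of 15847 in the main test.

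**Figure D3:**
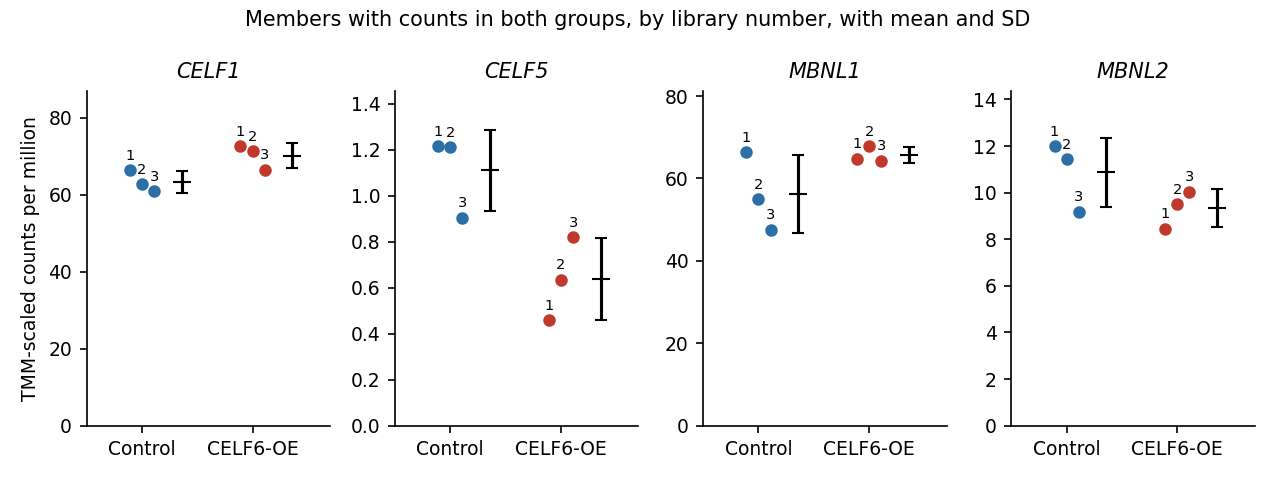
TMM-scaled CPM of CELF1, CELF5, MBNL1 and MBNL2, with each point a library marked by its replicate number and the bar the mean and SD of 3 libraries. CELF1 and CELF5 do not overlap between groups, as in 37.9% of all genes tested. Control replicate 1 of MBNL1 and Control replicate 3 of MBNL2 lie among the CELF6-OE values.

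**Figure D4:**
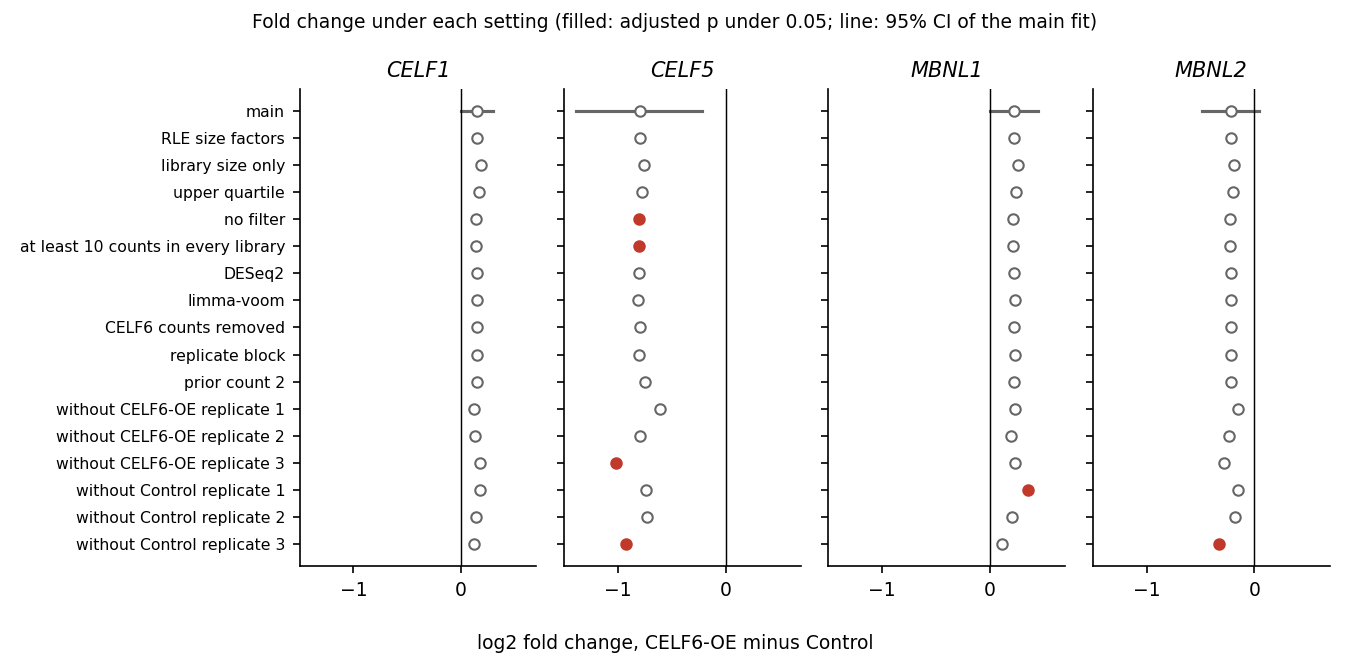
Log2 fold change (CELF6-OE minus Control) of the same 4 genes in the main test and under 16 alternative settings, filled where the adjusted p is under 0.05, with the 95% interval of the main test as a line. No estimate changes sign, CELF1 is never filled, and CELF5 is filled in 4 of 16 settings.

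Ratios within a library do not depend on how libraries are scaled. The FPKM ratio of MBNL1 to MBNL2 was 5.56, 5.18 and 4.65 in CELF6-OE and 4.02, 3.48 and 3.75 in Control, higher in every CELF6-OE library (exact permutation test, two-sided p = 0.1, the smallest that 3 against 3 libraries can give). The FPKM ratio of CELF1 to CELF5 lay between 27.5 and 34.9 in Control and between 42.3 and 86.3 in CELF6-OE, and likewise did not overlap (exact permutation p = 0.1). Both ratios were chosen after the values were seen. MBNL1 over CELF1, between the most abundant members of each family in Control, was 1.19, 1.27 and 1.29 in CELF6-OE and 1.34, 1.17 and 1.04 in Control, and overlapped (exact permutation p = 0.6).

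The added CELF6 outweighed the family it joined. The summed FPKM of CELF1, CELF2, CELF4 and CELF5 was 7.91, 7.93 and 7.39 in CELF6-OE and 7.52, 6.87 and 6.47 in Control, 7.74 ± 0.31 against 6.95 ± 0.53 (SD, n = 3, exact permutation p = 0.2). CELF6 made up 97.2%, 97.4% and 95.9% of the CELF sum in CELF6-OE replicates 1, 2 and 3, and exceeded CELF1 by 34.8-, 37.9- and 24.0-fold. The summed Muscleblind FPKM was 10.95, 11.8 and 11.29 in CELF6-OE and 12.09, 9.95 and 8.32 in Control, 11.3 ± 0.43 against 10.1 ± 1.89 (SD, n = 3, exact permutation p = 0.4). The ratio of CELF to Muscleblind FPKM was therefore 0.62, 0.69 and 0.78 in Control and 25.4, 25.7 and 15.9 in CELF6-OE. These are levels of RNA, and the protein was not analysed here.

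Genes overlapping a member on either strand could share its reads. On the opposite strand of CELF1, NDUFS3, a subunit of respiratory complex I, had a log2 fold change of -0.053 (adjusted p = 0.605) and PTPMT1, a mitochondrial phosphatase, one of 0.0011 (adjusted p = 0.994). Both are well expressed, at 4343 to 5165 and 1681 to 1897 counts. Per the methods the libraries were directional, but the strand setting of the counting is not given in the sources used here. MBNL1-AS1, antisense to MBNL1, had 6 to 28 counts per library (log2 fold change -0.13, adjusted p = 0.866). On the opposite strand of CELF6, ENSG00000261460 (RP11-106M3.3) had 9, 10 and 8 counts against 12, 7 and 10, and was too low to be tested.

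Calls of other splicing regulators are set beside the shares over all genes tested. Their list mixed genes of restricted tissue distribution with others such as PTBP1, which had a mean FPKM of 101 in Control. Of 19 genes, 14 were tested, 2 rose, 1 fell and 11 did not pass, with a median log2 fold change of 0.14 beside 0.011 over all genes tested, of which 6.47% rose and 11.5% fell. KHDRBS3 (T-STAR, a relative of SAM68) rose, with 91, 79 and 69 counts in CELF6-OE against 43, 29 and 28 in Control and a log2 difference of 1.33 ± 0.22 (SE, adjusted p = 0.00172), and passed in 16 of 16 alternatives. RBM24, a regulator of muscle splicing, rose by 0.47 (adjusted p = 0.0267), and RBM47, an epithelial splicing regulator, fell by 0.32 on the log2 scale (adjusted p = 0.0365). Without CELF6-OE replicate 1 or 2 or Control replicate 2, neither RBM24 nor RBM47 passed, and RBM24 did not pass without CELF6-OE replicate 3 either.

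Among 10 tested proteins that bind AU-rich, GU-rich or PUF elements in mRNA, 2 rose, 2 fell and 6 did not pass. Their median log2 fold change was 0.17. Over all genes tested, 6.47% rose and 11.5% fell. ZFP36 (tristetraprolin), which recruits the deadenylation machinery to AU-rich mRNAs, fell from 1843, 2032 and 1982 counts to 1149, 1127 and 1217, by 0.67 on the log2 scale (SE 0.075, adjusted p = 0.000158), and passed in 16 of 16 alternatives. Its relative ZFP36L2 fell by 0.24 (adjusted p = 0.0466). ELAVL1 (HuR), which stabilises such mRNAs, rose by 0.28 (adjusted p = 0.0148) and KHSRP, a decay-promoting protein, by 0.23 (adjusted p = 0.0247). Of 16 alternatives, ELAVL1 passed in 14, KHSRP in 11 and ZFP36L2 in 8. Without CELF6-OE replicate 1 or Control replicate 2 none of these 3 passed. KHSRP and ZFP36L2 did not pass without CELF6-OE replicate 2 or 3 either.

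All 21 deadenylation and decapping factors were tested, of which 2 rose, 3 fell and 16 did not pass. Their median log2 fold change was 0.086. The shares over all genes tested were 6.47% rising and 11.5% falling. XRN1, the cytoplasmic 5′ to 3′ exonuclease, had 373, 312 and 247 counts in the Control libraries and 164, 195 and 228 in the CELF6-OE libraries and fell by 0.59 on the log2 scale (SE 0.17, adjusted p = 0.0313), a call lost in 4 of 16 alternatives, among them without Control replicate 2 (0.0986) and without CELF6-OE replicate 1 (0.130) or 2 (0.112). TOB1, an adaptor of the CCR4-NOT deadenylase, fell by 0.53 (adjusted p = 0.00823) and DCP1A, a decapping cofactor, by 0.33 (adjusted p = 0.0312). CNOT7, a deadenylase subunit, rose by 0.24 (adjusted p = 0.0212) and PABPC1, the cytoplasmic poly(A)-binding protein, by 0.26 (adjusted p = 0.0264). TOB1 passed in 16 of 16 alternatives. DCP1A, CNOT7 and PABPC1 did not pass without CELF6-OE replicate 1 or 2 or Control replicate 2, and CNOT7 did not pass without CELF6-OE replicate 3 either.

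Transcripts whose splicing CELF or Muscleblind proteins are known to regulate were listed by gene level only. Of 29 such genes 21 were tested, 2 rose, 2 fell and 17 did not pass, with a median log2 fold change of 0.023. Beside this, 6.47% of all genes tested rose and 11.5% fell. NFIX, a transcription factor of muscle development, had 555, 559 and 585 counts in the Control libraries and 325, 377 and 430 in the CELF6-OE libraries and fell by 0.51 (SE 0.11, adjusted p = 0.0105), and lost the call without CELF6-OE replicate 1 (0.0594) or 2 (0.0546). APP, the amyloid precursor, fell by 0.26 (SE 0.073, adjusted p = 0.0331), while MTMR1, a myotubularin-related phosphatase, rose by 0.30 (SE 0.083, adjusted p = 0.0291) and MAPT, which encodes tau, by 0.45 (SE 0.13, adjusted p = 0.0387). The APP call was lost in 6 and the MTMR1 call in 4 of 16 alternatives, among them each without CELF6-OE replicate 1 or 2 or Control replicate 2, and APP also without CELF6-OE replicate 3. MAPT passed in 8 of 16 alternatives and in none that left out a library. Gene counts do not show which exons were used.

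Of 2 mRNAs described as stabilised by CELF6, 1 could be tested. The study cites earlier reports for both, that CELF6 may act through the stability of p21 and that it stabilised FBP1 in triple-negative breast cancer. Gene counts give the level of an mRNA and do not measure its stability, which was not tested. CDKN1A, the cell cycle inhibitor p21, was counted 4661, 4794 and 4706 times in CELF6-OE against 7761, 8711 and 8961 times in Control, and fell by 0.77 on the log2 scale (SE 0.070, adjusted p = 3.98e-05), in 16 of 16 alternatives. FBP1, a gluconeogenic enzyme, had 0 counts in 5 of the libraries and 1 in Control replicate 2.

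The genes whose scaled counts followed CELF6 most closely over the 6 libraries were HSPA6, EMP2 and NUDT3, with Pearson r of 0.9994, 0.9989 and 0.997 on log2(CPM + 1). These points are 2 groups of 3 libraries, so r mostly reflects the difference between groups. HSPA6, an inducible heat shock protein, had 2594, 2739 and 1828 counts against 93, 77 and 87 in Control, and like CELF6 was lowest in replicate 3 within CELF6-OE. EMP2 had 1545, 1622 and 1503 counts against 1421, 1426 and 1388. In all 23 genes outside the family reached an r of 0.99 with CELF6. With CELF5, the other member of smallest p, CCDC113 (0.997), GINM1 (0.995) and ALPK2 (0.994) were most alike, and 4 genes reached 0.99.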

How the data were processed

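RNA-seq of 3 CELF6-OE and 3 Control libraries was used, grouped by the sample labels. Per the methods, the authors made directional libraries from polyadenylated mRNA. They trimmed reads with FASTX-Toolkit, aligned them with TopHat2 to GRCh38 and counted reads with a unique location. The authors deposited whole-number read counts per gene without normalization, and FPKM values rounded to 2 decimals. The counting tool, its strand setting and its annotation release are not given in the sources used here. Low counts carry sampling error, most of all for CELF5.

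Counts were scaled by TMM and tested with edgeR 4.0.16 (R 4.3.3; filterByExpr with a minimum count of 10, glmQLFit and glmQLFTest, prior count 0.125), adjusted by Benjamini-Hochberg over all 15847 genes kept. Standard errors were derived from the F statistic, and intervals are approximate. Whether a value passed means an adjusted p under 0.05. Alternatives were other scalings, filters, DESeq2 1.42.0, limma-voom (limma 3.58.1), removal of CELF6 counts, a replicate block, a prior count of 2 and leaving out each library. FPKM sums were compared by exact two-sided permutation tests. A count of 0 was given a limit of 3 counts, which covers counting error only. The test was tried on simulated counts with known changes, and the outcome is not reported here. Reference sequences and coordinates are from GENCODE v44 (29032 of 29889 identifiers matched); primers are from the study's primer list.

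Named were the 9 members, and in each related list the genes passing both thresholds, or otherwise the 3 of smallest p. Other genes of a list that passed were named after their values were seen. Overlapping genes, and those within 100 kb of CELF6, were named from a mean of 10 counts; ENSG00000261460, below this, was named after its values were seen. For CELF6 and CELF5 the 3 genes most alike were named. The members and lists were chosen with earlier results of these data known. A matching stretch of the Muscleblind coding sequences is not reported here.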

Additional observations from a re-analysis of the deposited data

How the results depend on the processing

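Besides CELF6, 0 members passed in the main test. The count was 1 without a filter, where a gene's own replicate spread had no weight, and 1 with at least 10 counts in every library, both CELF5. It was 0 to 2 when 1 library was left out. By the thresholds of the study's methods it was 0 in the main test, 1 without a filter, 1 with at least 10 counts in every library and 0 to 1 with 1 library left out. Over the related lists 8 genes rose and 9 fell. With library size only as scaling 4 fell. With 1 library left out 1 to 16 rose, most without Control replicate 1, and 3 to 10 fell. The labels do not say whether same-numbered libraries were paired. Deviations from the group mean correlated at -0.084, -0.059 and -0.11 for same-numbered libraries, and at 0.00087 to 0.084 for other numbers. With 3 libraries per group these values cannot decide whether libraries were paired. With the replicate block 4 list genes rose, none of the members besides CELF6 passed, and 720 genes rose and 1570 fell over all genes, against 1025 and 1820 without it. The FPKM of CELF6 was 221 to 283 with 1 library left out, and 323 over its coding length. Of 19 called genes named outside the family, 14 were lost without CELF6-OE replicate 1, 12 without CELF6-OE replicate 2, 13 without Control replicate 2, 6 without CELF6-OE replicate 3 and 1 each without Control replicate 1 or 3, while 8 were lost with the block and 5 with library size only. The directions of CELF1, CELF5, CELF6, MBNL1 and MBNL2 reversed under none of the alternatives run for each. With all genes kept, 1302 rose and 2232 fell, and with library size only 1288 rose and 1516 fell. With 1 library left out 281 to 1906 genes rose and 1032 to 2370 fell. These causes were not tested, and a planned comparison of protein sequences was not run. Depth limits CELF2, CELF4 and MBNL3, and 3 libraries per group limit the exact tests to a p of 0.1.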
